A study of Mus musculus with 11 samples.

Results

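Expression of 9 genes of B-cells and of antigen presentation was followed in splenic T-cells of mice with TCL1A-induced leukemia: Cd79a, Cd79b, Ms4a1, Cd74, H2-Aa, H2-Ab1, Ciita, Cd86 and Cd40. They were chosen by name, as the array rows whose only gene symbol is one of these, and make up 9 of the 19937 genes with such a row. The 11 arrays (Affymetrix Mouse Gene 1.0 ST, a whole-transcript array) fell into 5 exponential-phase, 3 chronic-phase and 3 wild-type arrays. Exponential-phase leukemias came from hemizygous Lckpr-TCL1A+/- mice, in which the proximal Lck promoter drives human TCL1A in the T-lineage, with an average age of 15 months, a lymphocyte doubling time of 12 days (SEM 0.8) and tumor shares above 80% in blood and above 90% in spleen. Chronic-phase arrays came from mice of the same genotype, on average 12 months old, whose tumor cells made up 30 to 70%. Wild-type arrays came from age-matched C57BL/6 mice, and each held RNA pooled from 3 animals. Leukemic cells were enriched for CD8 with magnetic beads, whereas wild-type cells were purified as CD3+ pan-T-cells, so the effects of genotype and of selection cannot be told apart. Nothing in the labels says how many mice a leukemia array stands for, and p-values therefore measure the spread between these arrays.

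Cd79a and Cd79b encode the signalling pair that is bound to the B-cell receptor, and Ms4a1 encodes CD20, a surface protein of mature B-cells. H2-Aa and H2-Ab1 encode the alpha and beta chains of the class II molecule I-A, which presents peptides to CD4+ T-cells, and Cd74 encodes the invariant chain that guards its peptide groove until loading. Ciita is the transcriptional master regulator of class II genes, Cd86 is a costimulatory ligand of Cd28 and Ctla4, and Cd40 is the receptor through which T-cells activate B-cells and dendritic cells. Mouse T-cells, unlike those of human, do not as a rule make class II molecules, which are characteristic of B-cells, dendritic cells and macrophages.

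Promoter sequence was at hand for only 2 of the 9 genes in the RefSeq table (build GRCm38.p6). These were H2-Aa, a class II gene, and Cd79a, a B-cell receptor gene, whose levels had a Pearson r of 0.677 over the arrays. The promoter of each is shown as the 250 bases upstream of its start site. In that of H2-Aa (chr17:34287824-34288073, minus strand), capitals mark a CCAAT core, the Y box of class II promoters, on the opposite strand at -48 to -44, and TGACGTCA, a cyclic AMP response element, at -74 to -67. In that of Cd79a (chr7:24897247-24897496, plus strand), capitals mark the core GGAA of ETS factors, present 4 times, 1 of them on the opposite strand. The window of H2-Aa holds GGAA 3 times on the opposite strand, left in lower case.
H2-Aa: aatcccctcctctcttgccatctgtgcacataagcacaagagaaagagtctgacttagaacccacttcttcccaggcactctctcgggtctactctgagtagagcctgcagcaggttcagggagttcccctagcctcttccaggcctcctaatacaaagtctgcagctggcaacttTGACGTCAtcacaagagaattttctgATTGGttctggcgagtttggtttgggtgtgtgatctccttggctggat
Cd79a: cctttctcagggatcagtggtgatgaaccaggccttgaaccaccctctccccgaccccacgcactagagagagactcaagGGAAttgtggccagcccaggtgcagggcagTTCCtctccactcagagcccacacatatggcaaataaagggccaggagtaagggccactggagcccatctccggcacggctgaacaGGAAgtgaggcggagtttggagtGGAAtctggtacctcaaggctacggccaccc
Searched on both strands, CCAAT was found in 33.8% of the 32851 promoters of the table, TGACGTCA in 1.55%, and GGAA in 93.4%. The motif TGACGTCA was added to the search after the sequence had been seen. The octamer ATGCAAAT (1.60% of promoters) and the core CCCNNGGG of the B-cell factor Ebf1 (11.8%) were in neither of these windows. Only exact matches were searched for, so sites that depart from these letters would be missed. The search thus does not show that Cd79a or H2-Aa lacks a site for Ebf1. The arrays hold no binding data, and the matches describe the letters only.

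The deposited log2 values had the same distribution on every array, with a median of 2.30 over 34760 rows. Cd3e, a chain of the T-cell receptor complex, lay between 6.85 and 8.32 on all arrays. Of 9 T-cell markers measured, 9 had a lower mean in chronic than in wild-type arrays (median difference -0.64) and 7 in exponential than in wild-type arrays (-0.37), with 0 calls. Of the 11 arrays, 1 went against its label. Exponential replicate 4 had Cd8a at 2.96, against 7.94 to 8.20 on the other exponential arrays, and Cd4 at 5.18, against 2.15 to 2.44. It was kept, and for the genes with the largest differences values are also given without it.

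The B-cell genes varied more among the arrays of a group than between groups. Ms4a1 read 7.91, 4.88, 7.60, 6.07 and 6.64 on exponential replicates 1 to 5, 6.79, 3.43 and 5.10 on chronic replicates 1 to 3, and 3.62, 5.23 and 6.51 on wild-type replicates 1 to 3. Its highest arrays were exponential replicates 1 and 3, its lowest were chronic replicate 2 and wild-type replicate 1, and all groups overlapped. The highest array of a group lay 8.14-fold above the lowest in the exponential phase, 10.3-fold in the chronic phase and 7.45-fold among wild-type pools. The SD of Ms4a1 over all 11 arrays, 1.48, lay at the 99.7th percentile of all genes. In a bulk sample, fewer cells of a type and less RNA per cell cannot be told apart.

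Cd79b gave 4.99, 3.36, 4.62, 3.50 and 4.80 on the exponential arrays, 4.37, 3.29 and 4.73 on the chronic arrays, and 3.36, 3.66 and 5.05 on the wild-type arrays. Each group held arrays near 3.3 to 3.7 and arrays above 4.3, with the highest value of all in wild-type replicate 3. Its partner Cd79a gave 3.59, 2.18, 2.83, 2.12 and 2.34 on the exponential arrays, 2.53, 1.91 and 2.40 on the chronic arrays, and 1.90, 2.47 and 2.94 on the wild-type arrays. Exponential replicate 1 stood highest for Cd79a, and the groups again overlapped. Differences between groups made up 1.98% of the variance of Cd79b over arrays and 8.55% of that of Cd79a, against a median of 19.4% over all genes, and 28.2% for Ms4a1.

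The chains of I-A were more even within the exponential phase than within the other groups. H2-Aa, the I-A alpha chain, read 7.49, 6.59, 7.66, 6.56 and 7.07 on the exponential arrays, 6.36, 3.01 and 4.61 on the chronic arrays, and 4.68, 5.33 and 7.51 on the wild-type arrays. All 5 exponential arrays lay above all 3 chronic arrays, whereas wild-type replicate 3 reached the exponential range. Its spread within a group was 2.16-fold in the exponential phase, against 10.2-fold in the chronic phase and 7.12-fold in wild type.

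H2-Ab1, the beta chain, read 6.59, 5.33, 6.15, 5.29 and 6.12 on the exponential arrays, 3.68, 3.00 and 4.73 on the chronic arrays, and 2.99, 4.41 and 5.68 on the wild-type arrays. Exponential and chronic arrays did not overlap here either, and of the wild-type arrays only replicate 3 lay inside the exponential range. Between-group differences made up 59.5% of the variance of H2-Ab1 and 50.2% of that of H2-Aa, the highest shares among the 9 genes.

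Cd74, the invariant chain, read 5.31, 3.73, 5.36, 3.51 and 4.41 on the exponential arrays, 3.81, 2.91 and 3.41 on the chronic arrays, and 3.39, 3.56 and 5.17 on the wild-type arrays. Exponential replicates 2 and 4 lay within the chronic range, below chronic replicate 1. Differences between groups made up 29.5% of its variance.

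Cd86, the costimulatory ligand, read 3.41, 2.96, 3.52, 2.71 and 3.45 on the exponential arrays, 3.20, 1.92 and 1.84 on the chronic arrays, and 2.25, 2.83 and 3.04 on the wild-type arrays. Chronic replicates 2 and 3 were the lowest of all, and chronic replicate 1 lay among the exponential arrays. Ciita and Cd40 moved over narrower ranges. Ciita, the class II activator, lay between 1.98 and 2.50 on the exponential arrays, between 1.87 and 2.17 on the chronic arrays, and between 1.91 and 2.08 on the wild-type arrays. On only 2 of the 11 arrays did Ciita exceed the median of all rows, 2.30, so its narrow range does not show that Ciita was steady. Cd40 lay between 2.46 and 2.80 on the exponential arrays, between 2.39 and 2.50 on the chronic arrays, and between 2.30 and 2.58 on the wild-type arrays. Their SDs over 11 arrays, 0.19 for Ciita and 0.16 for Cd40, lay at the 48.7th and 31.6th percentiles of all genes, whereas the other 7 members lay at the 93.8th percentile or above.

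**Figure D1:**
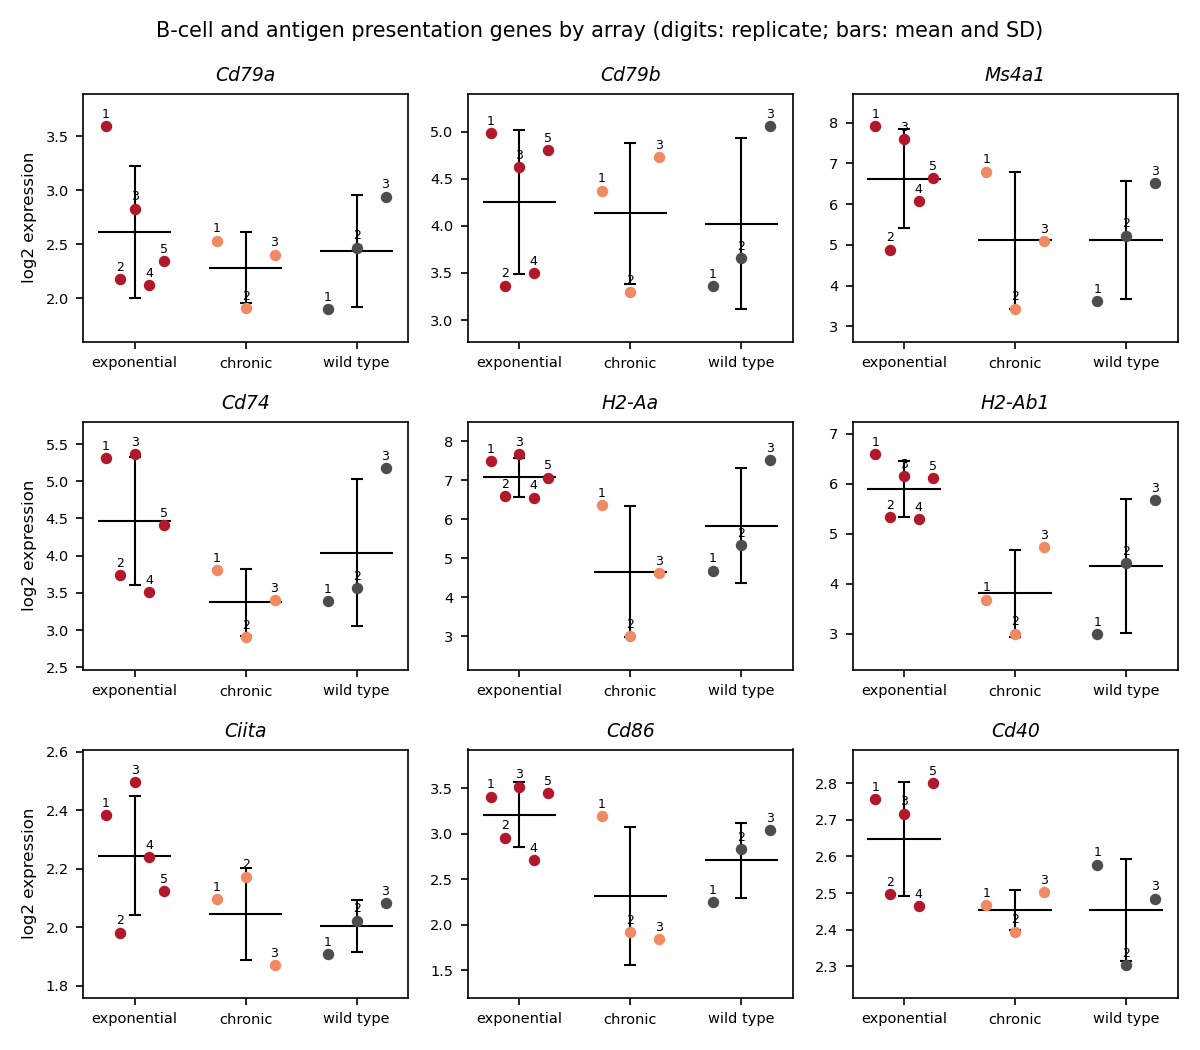
Log2 expression of the 9 genes (y axis, a separate scale for each gene) on the 5 exponential, 3 chronic and 3 wild-type arrays (x axis). Points are arrays, numbered by replicate, and lines give the mean and SD of a group. H2-Aa and H2-Ab1 are the genes whose exponential arrays all lie above the chronic arrays, and wild-type replicate 3 stands high for Cd79b, Cd74, H2-Aa and H2-Ab1.

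Exponential leukemias were set against wild-type T-cells to ask how the late disease differs from normal T-cells. All 9 genes had a higher mean in exponential arrays, and the test called none of them. H2-Ab1 averaged 5.89 ± 0.57 (SD, n = 5) in exponential arrays and 4.36 ± 1.34 (SD, n = 3) in wild-type arrays, a log2 difference of 1.54 in limma (95% interval 0.34 to 2.73, adjusted p = 0.347). Ms4a1 averaged 6.62 ± 1.22 in exponential arrays and 5.12 ± 1.45 in wild-type arrays, a 2.83-fold difference (interval on the log2 scale -0.21 to 3.21, adjusted p = 0.588). H2-Aa averaged 7.07 ± 0.51 in exponential arrays and 5.84 ± 1.48 in wild-type arrays, a log2 difference of 1.23 (-0.02 to 2.49, adjusted p = 0.520). These 3 were the largest of the 9 differences. For Cd86 the difference was 0.50 (-0.02 to 1.03, adjusted p = 0.529) and for Cd74 it was 0.42 (-0.77 to 1.62, adjusted p = 0.877). Ciita, Cd79b, Cd40 and Cd79a differed by 0.18 to 0.24, with adjusted p-values from 0.616 to 0.936. A call needs an adjusted p below 0.05 and a change of 1.5-fold or more, which 83 of 19937 genes (0.416%) reached. At an unadjusted p under 0.05, 1 member (H2-Ab1) and 1949 genes passed. The median difference of the members was 0.42, against 0.0067 over all genes. In 0 of the 9 genes did every exponential array lie above or below every wild-type array, against 3.28% of all genes above and 3.5% below. Without exponential replicate 4, 0 members were called either, with differences of 1.69 for H2-Ab1 (adjusted p = 0.208), 1.64 for Ms4a1 (adjusted p = 0.484), 1.36 for H2-Aa (adjusted p = 0.396), 0.66 for Cd74 (adjusted p = 0.727) and 0.63 for Cd86 (adjusted p = 0.224), and the number of genes called was 221. Single arrays moved these differences further. Without wild-type replicate 1 they were 0.75 for Ms4a1, 0.65 for H2-Aa and 0.85 for H2-Ab1, and without wild-type replicate 3 they were 2.20, 2.07 and 2.19, in the same order and with 0 members called.

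Chronic leukemias were set against wild-type T-cells to look at the disease before its full growth. Here 2 of the 9 genes had a higher mean in chronic arrays and 7 a lower one, and limma called 0 of 9, against 0.456% of all genes (91 genes). None of the members had an unadjusted p under 0.05, as 2225 genes did. H2-Aa averaged 4.66 ± 1.68 in chronic arrays and 5.84 ± 1.48 in wild-type arrays (SD, n = 3 each), a difference of -1.18 (95% interval -3.36 to 1.00, adjusted p = 0.750). Cd74 differed by -0.67 (-1.74 to 0.41, adjusted p = 0.701), H2-Ab1 by -0.55 (-2.12 to 1.02, adjusted p = 0.858) and Cd86 by -0.39 (-1.26 to 0.48, adjusted p = 0.805). Ms4a1 averaged 5.11 ± 1.68 in chronic arrays and 5.12 ± 1.45 in wild-type arrays, and the interval of the difference, from -2.18 to 2.15, is wide enough to hold a 4-fold change either way. The median difference of the members was -0.15, against -0.0017 over all genes. In 0 of 9 were the groups apart, against 8.28% of all genes with every chronic array higher and 7.52% with every chronic array lower.

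Exponential was set against chronic phase to compare the stages within 1 labelled genotype and 1 selection. The phases also differed in average age (15 against 12 months) and tumor share (above 90% in spleen against 30 to 70%). The effects of stage, age and tumor share cannot be told apart. All 9 genes had a higher mean in exponential arrays. H2-Aa averaged 7.07 ± 0.51 (SD, n = 5) in exponential arrays and 4.66 ± 1.68 (SD, n = 3) in chronic arrays, a difference of 2.41 or 5.33-fold (95% interval 1.00 to 3.82 on the log2 scale, adjusted p = 0.742). H2-Ab1 averaged 5.89 ± 0.57 in exponential arrays and 3.81 ± 0.87 in chronic arrays, a difference of 2.09 or 4.25-fold (1.16 to 3.01, adjusted p = 0.629). Cd74 differed by 1.09 (0.08 to 2.10, adjusted p = 0.795) and Cd86 by 0.89 (0.17 to 1.61, adjusted p = 0.778). Ms4a1 differed by 1.51, with an interval of -0.34 to 3.37 (adjusted p = 0.821). Cd79a, Ciita, Cd40 and Cd79b differed by 0.12 to 0.33.

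None of these differences held after adjustment over all genes. limma called 0 of the 9 members, as it called 0 of 19937 genes (0%) in this comparison. At an unadjusted p under 0.05 there were 4 members (H2-Ab1, H2-Aa, Cd86 and Cd74) among 1246 genes. The exponential arrays lay wholly above the chronic arrays in 2 of 9 members, against 2.3% of all genes, and wholly below in 0, against 2.25%. The median difference of the members was 0.89, against 0.0039 over all genes. Without exponential replicate 4, H2-Aa differed by 2.54 (adjusted p = 0.564), H2-Ab1 by 2.24 (adjusted p = 0.354), Cd74 by 1.33 (adjusted p = 0.603) and Cd86 by 1.02 (adjusted p = 0.615). The comparisons share their exponential, chronic or wild-type arrays, and their values are not independent of each other.

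**Figure D2:**
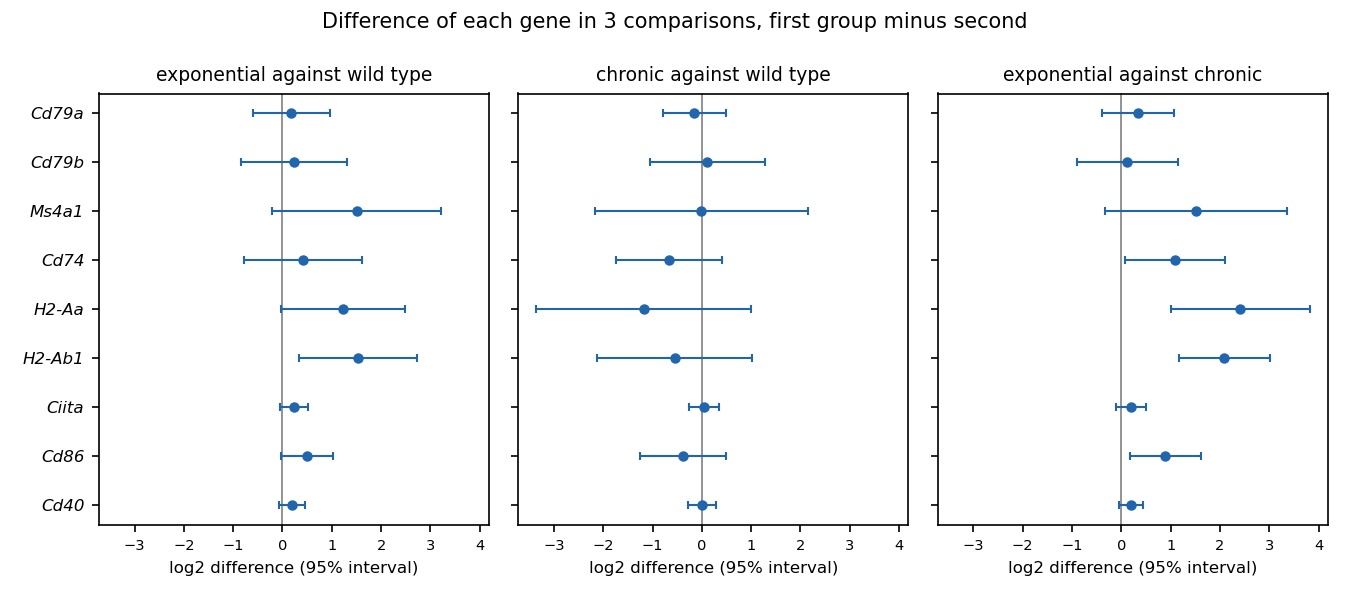
Difference in mean log2 expression (x axis, first group minus second) of the 9 genes (y axis) in 3 comparisons, with the 95% interval of the limma fit. The intervals of H2-Aa, H2-Ab1, Cd74 and Cd86 lie above 0 between exponential and chronic arrays, at adjusted p-values of 0.629 to 0.795, and that of H2-Ab1 also does against wild type.

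The same arrays were high or low for most of the 9 genes. Exponential replicate 1 was among the 3 highest of 11 arrays for 9 members, exponential replicate 3 for 8, and exponential replicate 5 and wild-type replicate 3 for 4 each. Chronic replicate 2 and wild-type replicate 1 were among the 3 lowest for 8 members each. The mean of Cd79a, Cd79b and Ms4a1 and the mean of Cd74, H2-Aa and H2-Ab1 had a Pearson r of 0.874 and a Spearman rho of 0.864 over the 11 arrays, given as a description of arrays that share group and normalization. Between single members, r ran from 0.302 for Cd79b with Ciita to 0.901 for H2-Aa with Cd86.

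The class II mean did not follow the B-cell mean in the same way in each group. Exponential replicates 2 and 4 had B-cell means of 3.48 and 3.90 and class II means of 5.22 and 5.12. Chronic replicates 1 and 3 had higher B-cell means, 4.57 and 4.08, and lower class II means, 4.62 and 4.25. Wild-type replicate 2, with a B-cell mean of 3.78, had a class II mean of 4.43. Chronic replicates 1 and 3 thus had a lower class II mean than these exponential arrays at a higher B-cell mean, a pattern that was seen in the values and not tested. In chronic replicate 1 it lay mostly in H2-Ab1 (3.68, against 5.33 and 5.29 on exponential replicates 2 and 4). H2-Aa was close to these arrays (6.36, against 6.59 and 6.56), and Cd74 was higher (3.81, against 3.73 and 3.51). Chronic replicate 1 was also the only array with a high value of the class II gene H2-Ea (5.74, against at most 2.08 elsewhere). Whether the H2 haplotype bears on its H2-Ab1 value was not tested.

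**Figure D3:**
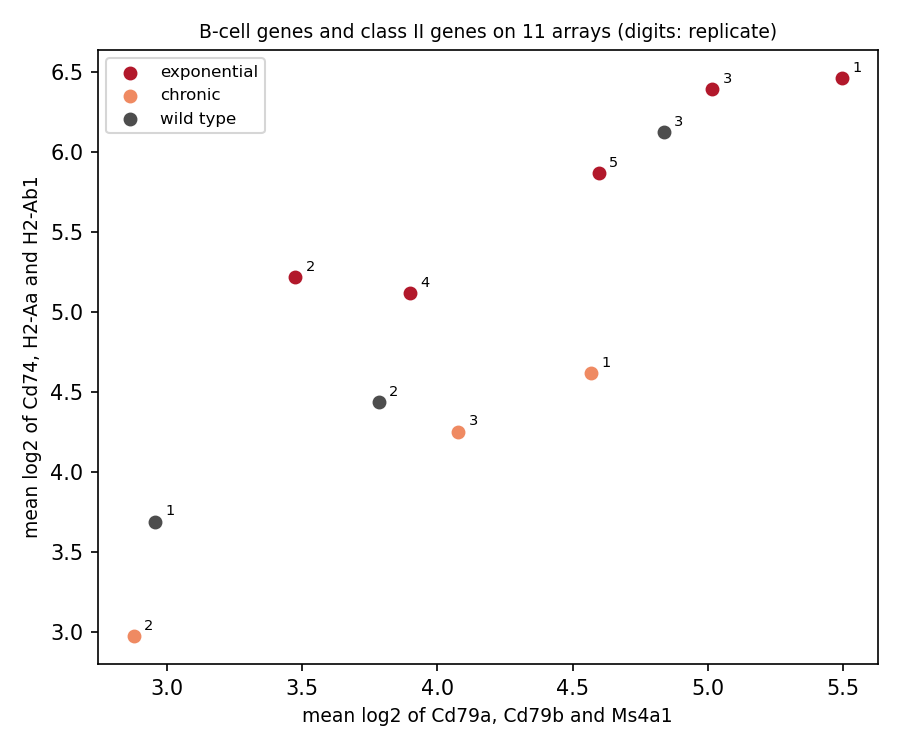
Mean log2 expression of the B-cell genes Cd79a, Cd79b and Ms4a1 (x axis) against that of the class II genes Cd74, H2-Aa and H2-Ab1 (y axis) on 11 arrays, coloured by group and numbered by replicate. The means go together over arrays (r = 0.874), and chronic replicates 1 and 3 lie below exponential replicates 2 and 4 at a higher B-cell mean. For chronic replicate 1 this lies mostly in H2-Ab1, while its Cd74 is higher than on those exponential arrays.

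Among 1212 genes with an SD of at least 0.5 over the arrays, those most like the B-cell mean were Bank1, a scaffold of B-cell receptor signalling (r = 0.949), Cd180, a Toll-like receptor homologue of B-cells (0.929), and Ebf1, a transcription factor that specifies B-cells (0.895). Kynu, Ctsh, Fcmr, H2-Eb1 and Blnk followed, at 0.796 to 0.863. Without the 2 arrays farthest from the median, Bank1 had 0.915 and Cd180 0.881, while Fcmr had 0.678 and H2-Eb1 0.664. Those most like the class II mean were Cd180 (0.929), H2-Eb1, the beta chain of the class II molecule I-E (0.927), Marcks (0.915) and Bank1 (0.900). Bank1 read 7.12, 3.74, 6.95, 4.70 and 5.96 on the exponential arrays, 5.53, 2.75 and 3.53 on the chronic arrays, and 2.98, 3.82 and 5.62 on the wild-type arrays. Cd180 ran from 3.80 to 6.16 in exponential arrays, from 2.83 to 4.58 in chronic arrays and from 2.92 to 5.91 in wild-type arrays.

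Of 6 other listed genes of the B-cell receptor complex and its co-receptors, 5 had a single-symbol row, and limma called 0 of them in any of the 3 comparisons. Cr2, the complement receptor of the B-cell co-receptor, read 5.84, 2.66, 5.87, 2.72 and 3.57 on the exponential arrays, 2.45, 2.04 and 2.10 on the chronic arrays, and 2.13, 2.36 and 2.88 on the wild-type arrays. Exponential replicates 1 and 3 thus stood far above all others, and every exponential array lay above every chronic one. Its difference was 1.68 against wild type (adjusted p = 0.533) and 1.94 against chronic (adjusted p = 0.790), and 2.03 (adjusted p = 0.277) and 2.29 (adjusted p = 0.628) without exponential replicate 4. Cd81, a tetraspanin of the co-receptor that T-cells also carry, differed by -1.17 in exponential arrays (adjusted p = 0.290) and by -1.20 in chronic arrays (adjusted p = 0.279), each against wild type. Fcgr2b, the inhibitory Fc receptor, read 6.01, 5.19 and 3.37 on the chronic arrays and 2.95, 2.57 and 3.64 on the wild-type arrays, a difference of 1.80 (adjusted p = 0.326).

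The list of B-cell receptor signalling genes (9 of 11 measured) also had 0 calls in any comparison. Pik3ap1, an adaptor that links the receptor and its co-receptor to PI3-kinase and that is made in other blood cells too, differed by 1.55 between exponential and wild-type arrays (adjusted p = 0.179), and every exponential array, from 5.15 to 7.16, lay above the wild-type arrays, from 3.93 to 4.63. Without exponential replicate 4 the difference was 1.22 and passed the test (adjusted p = 0.0270). Of 23 other B-cell markers measured, 14 had a higher mean in exponential than in wild-type arrays, 20 a higher mean in exponential than in chronic arrays, and 3 a higher mean in chronic than in wild-type arrays, with 0 calls each. Their median differences were 0.18, 0.34 and -0.25. Pax5, which maintains B-cell identity, read 3.61, 2.71, 3.68, 2.66 and 3.39 in exponential arrays and 2.81, 2.30 and 2.63 in chronic arrays (difference 0.63, adjusted p = 0.795). Between exponential and wild-type arrays, the markers with the smallest p-values lay the other way. Pou2af1, a coactivator of B-cell transcription, differed by -0.80 (adjusted p = 0.365) and Vpreb3, which takes part in assembly of the B-cell receptor, by -0.38 (adjusted p = 0.436), and Tnfrsf13b, a BAFF and APRIL receptor of B-cells, by -0.33 (adjusted p = 0.470). These were the 3 of the 23 with an unadjusted p under 0.05, against 1949 of all 19937 genes. Vpreb3 lay above the median of all rows on only 2 of the 11 arrays.

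Immunoglobulin genes had another order of arrays than the 9 genes. Jchain, which joins IgM and IgA chains and is made by plasma cells, read 8.06, 6.24, 8.13, 7.70 and 7.77 on the exponential arrays, 6.44, 9.49 and 10.20 on the chronic arrays, and 9.20, 10.38 and 11.13 on the wild-type arrays. Every exponential array lay below every wild-type array, with a difference of -2.66 (adjusted p = 0.067), which passed the test without exponential replicate 4 (-2.69, adjusted p = 0.0453). Ighm, the IgM heavy chain, likewise ran from 3.89 to 5.50 in exponential arrays and from 6.38 to 7.88 in wild-type arrays, a difference of -1.99 (adjusted p = 0.0964, or 0.0763 without exponential replicate 4). Over arrays, r with the B-cell mean was -0.015 for Ighm and -0.109 for Jchain, and after removal of the group means it was 0.363 and 0.214. Of 11 listed immunoglobulin genes, 4 had a row of their own, and limma called 0 of them in each comparison.

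Marker lists for other cells that a spleen preparation can hold are given beside these results. The summed linear level of 9 B-cell markers (10 listed) ran from 57.3 to 269 in exponential arrays, from 42.7 to 99.1 in chronic arrays and from 57.6 to 106 in wild-type arrays. That of 11 macrophage and monocyte markers (12 listed) ran from 118 to 153 in exponential arrays, above 58.3 to 67.9 in chronic and 63.6 to 69.4 in wild-type arrays, and 1 of the 11, Lyz2 (lysozyme of myeloid cells), was called higher against wild type (difference 2.91, adjusted p = 0.0114). Every exponential array lay above every wild-type array for 5 of the 11 (3.28% of all genes) and above every chronic array for 3 (2.3% of all genes). Lyz2 read 6.05, 4.84, 5.74, 6.36 and 5.86 on the exponential arrays, 2.54, 3.62 and 2.13 on the chronic arrays, and 2.35, 2.92 and 3.31 on the wild-type arrays, so it separated the exponential arrays from both other groups, as H2-Aa and H2-Ab1 separated them from the chronic arrays. Over arrays, r of Lyz2 with the mean of Cd74, H2-Aa and H2-Ab1 was 0.653, and after removal of the group means it was 0.065. For 10 dendritic cell markers (10 listed) the sum ran from 81.7 to 230 in exponential, from 62.3 to 87.5 in chronic arrays, and was at most 156 in wild-type arrays, and 2 of them, Siglech and Clec10a, were below the median of all rows on every array. Ccr7, a homing receptor that T-cells also carry, was the highest of the 10 on each array, from 5.27 to 7.50 in exponential, from 4.30 to 5.44 in chronic and from 5.56 to 6.76 in wild-type arrays, on the log2 scale. In exponential replicate 2, which had the lowest Ms4a1 of its phase, Clec9a and Xcr1, markers of cross-presenting dendritic cells, read 4.39 and 3.19, above all other arrays. Siglech, below the median of all rows, was also highest there, and all remaining dendritic cell markers were highest on other arrays. The 7 neutrophil markers summed to 73.2 to 797 in exponential, 33.9 to 47.1 in chronic and 34.7 to 44.4 in wild-type arrays, and the highest was exponential replicate 4. The 7 plasma cell markers summed to 114 to 329 in exponential, 132 to 1304 in chronic and 660 to 2412 in wild-type arrays. Jchain, already given above, was the highest of the 7 on each array (6.24 to 11.13 on the log2 scale) and made up most of each sum. The 6 NK cell markers summed to 39.5 to 472 in exponential, 413 to 563 in chronic and 145 to 224 in wild-type arrays, and Klrd1, an NK receptor subunit that CD8+ T-cells also carry, was called higher in chronic than in wild-type arrays (difference 1.88, adjusted p = 0.0371). The 5 erythroid markers measured (8 listed) summed to 24.1 to 85.8 in exponential, 23.4 to 740 in chronic and 414 to 1001 in wild-type arrays. Car1, a carbonic anhydrase of red cells, read 1.92, 2.62, 1.82, 5.29 and 3.03 on the exponential arrays, 2.27, 9.27 and 7.63 on the chronic arrays, and 8.53, 8.82 and 9.79 on the wild-type arrays, and was called lower in exponential than in wild-type arrays (difference -6.11, adjusted p = 0.0114). The part of these cells in the values of the 9 genes was not tested.

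**Figure D4:**
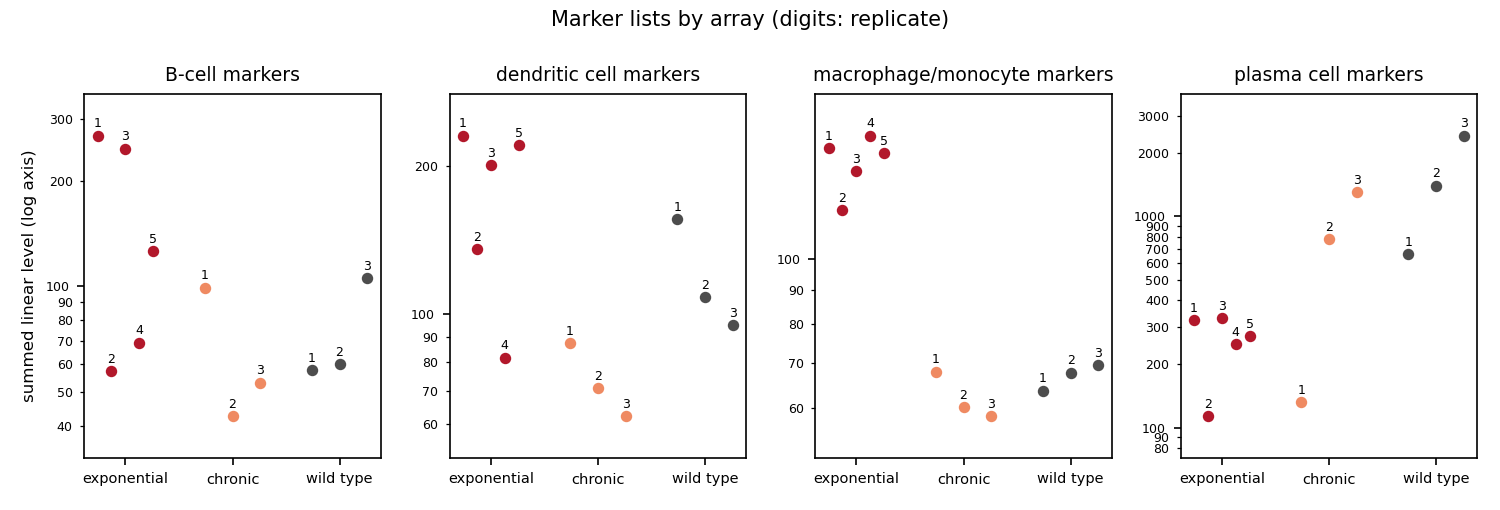
Summed linear level (y axis, log scale, a separate scale for each list) of B-cell, dendritic cell, macrophage and monocyte, and plasma cell markers on the exponential, chronic and wild-type arrays (x axis). Points are arrays, numbered by replicate. The sum of macrophage and monocyte markers is higher in all 5 exponential arrays (118 to 153) than in the other arrays (58.3 to 69.4), while that of B-cell markers overlaps between groups. Lyz2 is the only macrophage and monocyte marker that was called.

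Of 9 further class II genes listed, 6 were measured, and limma called 0 of them in each comparison. H2-Eb1 read 5.10, 3.55, 4.43, 3.84 and 4.48 on the exponential arrays, 3.28, 2.80 and 3.07 on the chronic arrays, and 3.32, 3.42 and 4.85 on the wild-type arrays. As with the I-A chains, all exponential arrays lay above all chronic arrays, with a difference of 1.23 (adjusted p = 0.742), and wild-type replicate 3 was high. H2-Oa also separated them, at 2.54 to 3.14 on the exponential arrays and 1.87 to 2.48 on the chronic arrays. H2-Ob and H2-Oa, the chains of H2-O, which restrains peptide loading in B-cells, differed by 1.22 (adjusted p = 0.789) and 0.48 (adjusted p = 0.784) between exponential and chronic arrays. Exponential arrays thus lay wholly above chronic arrays in 2 of the 6, against 2.3% of all genes. Of the 6, 5 had a higher mean in exponential than in chronic arrays, against 51.15% of all genes. Their median difference was 0.45, against 0.0039 over all genes. An unadjusted p under 0.05 was reached by 5 of the 6, against 1246 of 19937 genes.

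The exception was H2-Ea, the I-E alpha chain, which C57BL/6 mice do not make because of a deletion in the gene. It read 5.74 on chronic replicate 1, against 1.78 and 1.84 on the other chronic arrays, 1.63 to 2.08 on the exponential arrays and 1.79 to 1.87 on the wild-type arrays. The value on chronic replicate 1 was 3.66 above the next highest array. In all, 11 genes, H2-Ea included, had 1 array at least that far above the next. Chronic replicate 1 had a mean rank of 5.78 among the 11 arrays for the 9 genes themselves, with H2-Ab1 at 3.68 and H2-Eb1 at 3.28. H2-Ea was singled out after its values had been seen, and the H2 haplotype of the mice was not tested.

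**Figure D5:**
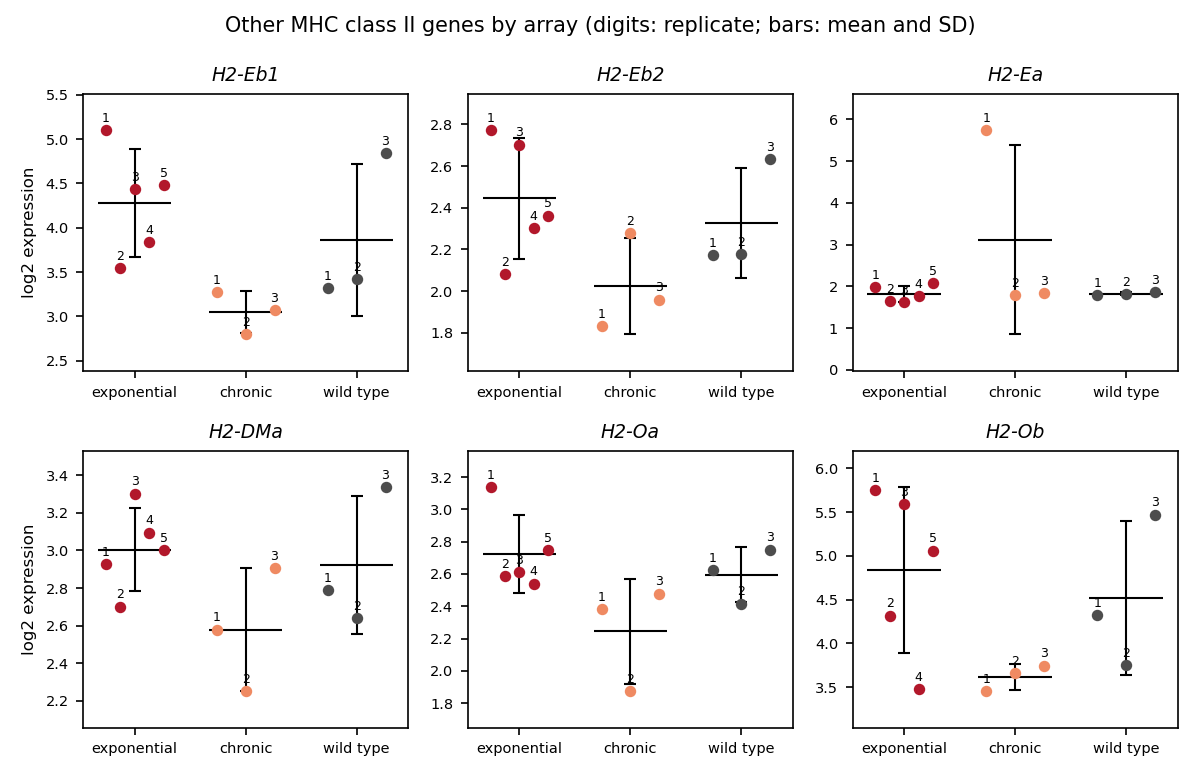
Log2 expression of 6 further class II genes (y axis, a separate scale for each gene) on the exponential, chronic and wild-type arrays (x axis). Points are arrays, numbered by replicate, with the mean and SD of each group. H2-Eb1 and H2-Oa separate exponential from chronic arrays, and H2-Ea is high on chronic replicate 1 alone (5.74).

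The genes that surround class II molecules in the pathway had no calls. Of 7 genes of the complex that binds class II promoters with Ciita, 0 were called, and the medians of their differences were -0.10 for exponential against wild type, -0.03 for chronic against wild type and -0.04 for exponential against chronic. Rfxap, a subunit of the RFX complex, had a lower mean in exponential than in chronic arrays (difference -0.37, adjusted p = 0.777), opposite in sign to H2-Aa and H2-Ab1. Of 6 genes of class II processing, 0 were called. Ctsb (cathepsin B) differed by -0.59 (adjusted p = 0.235) in exponential and by -0.96 (adjusted p = 0.0787) in chronic arrays, each against wild type, and Lgmn (legumain) by 0.41 (adjusted p = 0.785) between exponential and chronic arrays. Class I presentation, which all nucleated cells perform, had 0 calls among 12 measured genes, with median differences of -0.12, -0.10 and -0.06 in the same 3 comparisons. Erap1, which trims class I peptides, differed by 0.67 (adjusted p = 0.255) in exponential and 0.77 (adjusted p = 0.107) in chronic arrays against wild type, and Nlrc5, the activator of class I genes, by -0.36 (adjusted p = 0.773) in exponential and -0.78 (adjusted p = 0.111) in chronic arrays. Of 7 genes that lead from interferon-gamma to Ciita, 0 were called, and Jak2 came closest, at -0.78 (adjusted p = 0.0782) in exponential and -1.02 (adjusted p = 0.0719) in chronic arrays, each against wild type.

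The partners of Cd86 and Cd40 on T-cells include the only calls among the pathway genes with all arrays in the fit. Ctla4, the inhibitory receptor of Cd86, read 7.57, 4.07, 6.28, 3.85 and 6.87 on the exponential arrays, 6.29, 4.77 and 6.13 on the chronic arrays, and 10.17, 10.37 and 9.62 on the wild-type arrays. Both phases lay wholly below wild type, as 3.5% of all genes did in the exponential and 7.52% in the chronic phase. In the chronic phase limma called Ctla4 (-4.32, adjusted p = 0.0111), but not in the exponential phase (-4.33, adjusted p = 0.067). Without exponential replicate 4, Ctla4 passed in the exponential phase (-3.86, adjusted p = 0.0271). Between the phases, Ctla4 had an adjusted p of 0.999. Cd40lg, through which helper T-cells engage Cd40, read 2.03, 1.77, 1.95, 3.54 and 1.67 on the exponential arrays, 2.42, 1.63 and 1.64 on the chronic arrays, and 3.94, 4.73 and 4.56 on the wild-type arrays. It fell by 2.52 in the chronic phase (adjusted p = 0.0176), and its difference in the exponential phase was -2.22 (adjusted p = 0.0577), with exponential replicate 4, the array with Cd4, nearest to wild type. Without that array the difference was -2.56 and passed the test (adjusted p = 0.000348). The 4 CD4 lineage markers, Cd40lg among them, summed to 18.4 to 58.3 in exponential, 16.5 to 22.6 in chronic and 52.9 to 63.5 in wild-type arrays. All 4 had a lower mean in both phases than in wild type. Foxp3, also among the 4, ran from 2.24 to 2.76 in exponential, 2.50 to 2.62 in chronic and 3.07 to 3.32 in wild-type arrays. Only leukemic cells were enriched for CD8, and the part of CD4+ T-cells in the Ctla4 and Cd40lg values was not tested. Cd4 itself was called lower in chronic than in wild-type arrays (-2.29, adjusted p = 0.0122), and against wild type in the exponential phase it differed by -1.59 (adjusted p = 0.442), or by -2.18 without exponential replicate 4 (adjusted p = 0.000167). Of 8 genes of the B7 and CD28 families and 10 of the CD40 pathway, limma called these 2 in the chronic phase and, with all arrays, 0 in the other comparisons.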

How the data were processed

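Splenic T-cell RNA was measured on 11 Affymetrix Mouse Gene 1.0 ST arrays. The deposited values are log2 expression, which the authors background-corrected by RMA and quantile-normalized with the affy package of R (version not given in the sources used here). No detection calls were used. Precision is limited by how few arrays each group holds. Of 34760 rows, 21640 carried 1 gene symbol in the platform annotation, 1321 several and 11799 none. The row with the highest mean was kept for each gene, which left 19937 genes, and no filter on dim rows was applied. Groups came from the sample titles.

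Each comparison was fitted on its own arrays with limma 3.58.1 in R 4.3.3 (lmFit, eBayes), with Benjamini-Hochberg adjustment over all genes. Calls needed an adjusted p below 0.05 and a change of 1.5-fold or more. Differences are first group minus second, with moderated 95% intervals, and SDs are between arrays. On simulated data, the fit recovered 92 to 94% of 4-fold changes and 54 to 80% of 2-fold changes over the 3 comparisons, with 3 to 9 false calls. The changed genes were drawn at random from all genes. Most members vary far more between arrays than a typical gene. These shares therefore do not tell how often such a change would be called in the members. Correlations are descriptions over 11 arrays. Summed linear levels add 2 to the power of each marker's value.

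Alternatives were the replicate number as a block, 1 joint fit of the 3 groups, array weights and a robust fit with a variance trend. The t-test that the study names for its human and mouse arrays was a further alternative. Others were cyclic loess, median centring, repeated quantile normalization, removal of the dimmest 30% or 50% of genes and averaged rows per gene. The last were every row of the table, no minimum fold, and removal of each array in turn. Removal of exponential replicate 4 was extended to 10 list genes after the data had been seen. The 9 genes and the gene lists were chosen with earlier results of these data known. Genes outside the 9 were named when called, or from the 2 smallest p-values of a list in a comparison and the 8 most alike, not all of which are named. Clec9a, Xcr1, Ccr7, Itgax, Cd3e and Cd8a were named as markers, and H2-Ea, Psmb8 and Tnfrsf13b after its values had been seen. Sequences are from RefSeq. H2-DMb1 and H2-DMb2 had no row of their own and were not analysed here.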

Additional observations from a re-analysis of the deposited data

Results flagged for a closer look

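Within the 5 exponential arrays, 6 of 45 genes examined had 1 array set apart, with a gap to its nearest neighbour over more than 0.71 of the range of the group. Chance gives such a gap in about 1 group in 20, but Cd8a, Cd4, Cd40lg and Clec9a were among the genes examined with such an array already in view, so the count is not read against that share. Exponential replicate 4 stood apart for Cd8a (2.96, gap 0.950 of the range, lowest), Cd4 (5.18, gap 0.905, highest) and Cd40lg (3.54, gap 0.806, highest). Exponential replicate 2 stood apart for Jchain (6.24, gap 0.776, lowest) and for Clec9a (4.39, gap 0.768, highest). Exponential replicate 5 stood apart for Itgax, which encodes CD11c of dendritic cells (3.70, gap 0.852, highest). None of the 9 genes themselves had such an array. What set these arrays apart was not tested.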

How the results depend on the processing

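No alternative called any of the 9 genes in any comparison. Of 546 values of members under alternatives, 522 kept their direction and 24 reversed it, all of them small or uncalled differences. Apart from leaving out arrays, the reversals were Cd40 in chronic against wild type, at 0.014 with cyclic loess and 0.010 with array weights, and Cd79b there, at -0.17 with array weights. With 1 array left out in turn, differences that reversed ran from -0.090 to 0.43 (Cd79a) and from -0.10 to 0.75 (Cd79b) in exponential against wild type, and from -0.30 to 0.42 (Cd79b) in exponential against chronic. In chronic against wild type they ran from -0.42 to 0.10 (Cd79a), -0.22 to 0.62 (Cd79b), -0.85 to 0.83 (Ms4a1), -1.23 to 0.11 (H2-Ab1), -0.021 to 0.13 (Ciita) and -0.076 to 0.061 (Cd40). Between exponential and chronic arrays, H2-Aa ranged from 1.59 to 3.27 and H2-Ab1 from 1.69 to 2.55. In exponential against wild type, Ms4a1 ranged from 0.75 to 2.20, H2-Aa from 0.65 to 2.07 and H2-Ab1 from 0.85 to 2.19. Of 10 list genes refitted without exponential replicate 4, a choice made after seeing the data, Ctla4, Cd40lg, Pik3ap1, Jchain and Cd4 became calls against wild type. Uncalled differences that turned were Klrd1 against wild type (0.57), and Ctla4 (0.47) and Cd40lg (-0.038) against chronic.

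The number of genes called over the whole array moved more. In exponential against wild type it was 139 with the replicate block, 4 with the methods' t-test after adjustment and 45 over every row of the table. It ran from 16 (without wild-type replicate 2) to 221 (without exponential replicate 4) with 1 array left out, and was 36, 43, 37, 32 and 26 without exponential replicates 2, 3 and 5 and wild-type replicates 1 and 3. In chronic against wild type it was 154 with a robust fit and a variance trend, 0 with the t-test and 0 over every row, where 3221 rows had an unadjusted p under 0.05. It ran from 8 (without wild-type replicate 1) to 108 (without chronic replicate 3), and was 40, 45, 14 and 18 without chronic replicates 1 and 2 and wild-type replicates 2 and 3. In exponential against chronic it ran from 0 to 2 (without chronic replicate 1). At an unadjusted p below 0.05 and a change of 1.5-fold or more, the t-test gave 123 genes there, H2-Aa and H2-Ab1 among them, and 477 and 623 genes, without any member, for the exponential and the chronic phase against wild type. Same-numbered arrays correlated at -0.037 to 0.18 in their deviations, so they share only a number, and the replicate block called 110 genes in chronic against wild type and 0 in exponential against chronic. The causes of these shifts were not tested.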

Other observations

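Chronic replicate 1, the array with H2-Ea at 5.74, also had the highest Psmb8, a subunit of the immunoproteasome encoded in the H2 region, at 6.75, against 5.71 and 6.00 on the other chronic arrays, 5.69 to 5.94 on the exponential arrays and 5.73 to 5.83 on the wild-type arrays. Psmb8 was chosen after its values had been seen. On the same array Jchain read 6.44, against 9.49 and 10.20 on the other chronic arrays, while Ms4a1 read 6.79, against 3.43 and 5.10. Wild-type replicate 3 had the highest Jchain (11.13), Ighm (7.88) and Cd79b (5.05) of all 11 arrays, although its RNA came from purified T-cells, and wild-type replicate 1 had the lowest H2-Ab1 (2.99) of all. The wild-type pools thus spanned 6.42-fold for H2-Ab1 and 7.12-fold for H2-Aa.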
